A study of Homo sapiens with 6 samples.

Results

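Collagen genes were examined in SKOV3, a human ovarian cancer cell line, after the translation factor gene EIF5A2 was silenced. They were taken as every protein-coding gene with a symbol of the form COL, a number, A and a number, without antisense genes, which gave 44 of the 58825 genes in the table, on 17 chromosomes. Messenger RNA was sequenced from SKOV3 cells given a negative control siRNA (n = 3 libraries, named NC) or an siRNA against EIF5A2 (n = 3 libraries, named si-EIF5A2), 48 h after transfection as the series describes it. Both groups are the same cell line and, by the labels, differ in the siRNA only. The paper lists a single siRNA against EIF5A2, so effects of that siRNA on other genes cannot be told apart from loss of EIF5A2. Nothing in the labels says whether the 3 libraries of a group came from separate cultures, so each p-value measures the spread between these libraries, which may be technical.

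Collagens are secreted or membrane proteins in which chains wind into a triple helix along stretches of repeated glycine-X-Y triplets. Fibrillar collagens build the fibres of connective tissue, type IV collagen builds the sheet of the basement membrane on which epithelia rest, and type VI collagen forms beaded filaments around cells. Chains are hydroxylated and folded in the endoplasmic reticulum, exported in large carriers, trimmed and cross-linked outside the cell, bound by integrins and discoidin domain receptors, and cut by metalloproteinases. In ovarian cancer, collagens are known as a major part of the matrix around the tumour cells.

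The libraries held 46900204 to 74142267 estimated counts. Low values lay at multiples of about 3.72 counts, so 1 sequenced fragment was worth several counts. Levels are given as CPM, the counts of a gene relative to all counts of its library after TMM scaling, and a count of 0 allows up to 3 fragments, or 0.153 to 0.237 CPM by library, for counting error only. EIF5A2, the targeted gene, was at 27.8, 29.8 and 29.9 CPM in the NC libraries and at 2.76, 4.04 and 4.27 CPM in the si-EIF5A2 libraries. It was called lower, with a log2 fold change (log2FC) of -2.98, a standard error (SE) of 0.18 and an adjusted p of 1.6e-05. Every adjusted p given for a gene comes from the quasi-likelihood test of edgeR, with Benjamini-Hochberg adjustment over all genes tested. A gene counted as called, higher or lower, where that p was below 0.05 and the fold change above 1.5.

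SKOV3 cells had RNA of a limited part of the collagen family above the filter. Of the 44 genes, 23 passed the filter on low counts and were tested, and 21 did not. Among the untested genes, 10 were at 0 in every library: COL4A3, COL5A3, COL6A5, COL6A6, COL9A1, COL10A1, COL20A1, COL22A1, COL25A1 and COL26A1. The other 11 had a count somewhere. In 9 of these (COL1A2, COL2A1, COL9A3, COL14A1, COL15A1, COL19A1, COL21A1, COL23A1 and COL28A1) no library held more than 11 counts. COL11A1 reached 19 counts and COL3A1 34 counts, each in si-EIF5A2 replicate 3, and both were at 0 in every NC library. Of type I collagen, the main fibre of connective tissue, the chain COL1A2 stayed under 3 fragments in every library, and its partner COL1A1 was at 1.15, 0.579 and 0.0638 CPM in NC and 0.782, 1.13 and 1.98 CPM in si-EIF5A2.

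Most of the collagen message belonged to type VI and type IV chains. COL6A1, COL6A2, COL4A2 and COL4A1 together held 90.3% to 91.9% of the summed collagen CPM of each library. Divided by the length of the merged exons, the mean levels in NC were 102 ± 10.9 CPM per kb for COL6A1, 67.3 ± 8.19 for COL6A2, 22.5 ± 1.02 for COL4A2 and 6.88 ± 1.03 for COL4A1 (SD, n = 3). The gaps between these 4 levels were larger than the SDs on either side. The transmembrane collagen COL17A1 came next at 3.14 ± 0.297 CPM per kb (SD, n = 3), followed by COL13A1 at 2.27 ± 0.141, COL5A2 at 2.04 ± 0.150 and COL18A1 at 1.89 ± 0.327 CPM per kb, and COL5A2 and COL18A1 did not differ beyond their spread. In si-EIF5A2 the order of the first 4 was the same, at 146, 90.6, 17.4 and 12.9 CPM per kb, and COL5A2 (6.07 ± 0.576), COL18A1 (3.13 ± 0.0850), COL5A1 (1.70 ± 0.145) and COL12A1 (1.69 ± 0.121) CPM per kb followed (SD, n = 3). The order below the first 4 places depended on the length used: with the longest transcript, COL13A1 stood above COL17A1 in NC, and COL27A1 and COL4A5 above COL5A1 and COL12A1 in si-EIF5A2.

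After EIF5A2 knockdown, 6 collagen genes rose and 2 fell. Those that rose were the type V chains COL5A2 and COL5A1, the fibrillar chain COL24A1, the type VI chain COL6A3 and the basement membrane chains COL4A1 and COL18A1, with log2FCs from 0.73 to 1.63, and those that fell were the transmembrane collagens COL13A1 and COL17A1, with log2FCs of -1.56 and -1.21. The 8 called genes were 34.8% of the 23 tested. Over all 16208 genes tested, 24.6% were called, with 11.1% higher and 13.6% lower. The collagens were chosen with earlier results of these data known, so these shares are a description and not a test. The counts called by class below are to be read beside them. The median log2FC of the tested collagens was 0.43, with 16 above 0 and 7 below, beside a median of -0.01 over all genes tested, of which 49.3% were above 0. In 14 of the 23 collagens (60.9%) the ranges of the groups were apart, a share to be read beside 51.2% over all genes tested. In bulk RNA of this kind, a change in the number of cells that express a gene cannot be told apart from a change in RNA per cell.

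**Figure D1:**
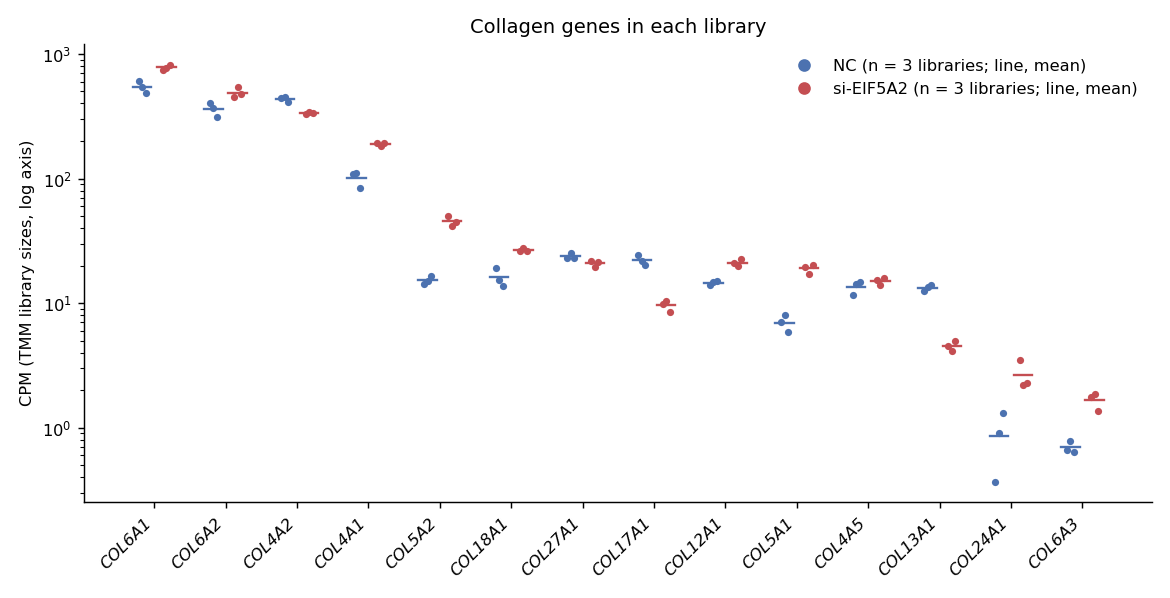
Level of 14 collagen genes in each library, as CPM with TMM library sizes on a log axis, for every gene called or with a mean of at least 10 CPM in either group. Points are libraries (NC blue, si-EIF5A2 red, n = 3 each) and lines are group means. The groups overlap for COL4A5 and are separate for every other gene shown, including genes not called, such as COL27A1. Called genes were selected on the difference between groups. Over all 23 tested collagens the groups were apart in 14 (60.9%), beside 51.2% over all genes tested.

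Among the fibrillar collagens, 6 of 11 were tested, and 3 rose and 0 fell. COL5A2, a chain of type V collagen that starts and limits the growth of type I fibrils, was at 14.2, 15.0 and 16.4 CPM in the NC libraries and at 49.9, 41.4 and 44.5 CPM in the si-EIF5A2 libraries. Every si-EIF5A2 library was far above every NC library. Its log2FC was 1.57 (SE 0.11, adjusted p = 2.9e-05), and the mean level in si-EIF5A2 was 2.97 times that in NC. The gene lies on chromosome 2 from 189031896 to 189225312 on the minus strand (GRCh38), 19149 bases from COL3A1, which had counts in 1 library only.

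COL5A1, the other type V chain found here, was at 7.002, 7.98 and 5.89 CPM in NC and at 19.5, 17.2 and 20.4 CPM in si-EIF5A2. The groups did not overlap. Its log2FC of 1.45 (SE 0.15, adjusted p = 0.000205) was close to that of COL5A2. The third type V chain, COL5A3, was at 0 throughout. COL24A1, a fibrillar collagen known mainly from bone, was at 0.370, 0.904 and 1.32 CPM in NC and 3.48, 2.20 and 2.29 CPM in si-EIF5A2. Its libraries did not overlap either, but they spread widely within a group. The log2FC was 1.63 (SE 0.46, adjusted p = 0.0255), and the call was lost without NC replicate 2 (1.67, adjusted p = 0.0693) and without si-EIF5A2 replicate 1 (1.38, adjusted p = 0.091).

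COL27A1, a fibrillar collagen of cartilage, was at 23.1, 25.2 and 22.9 CPM in NC and 21.9, 19.3 and 21.4 CPM in si-EIF5A2. Although the groups did not overlap, the log2FC of -0.19 did not pass the test (SE 0.10, adjusted p = 0.194). COL1A1 (log2FC 1.09, adjusted p = 0.361) overlapped between groups.

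Type IV collagen, the network of basement membranes, had 5 of 6 chains tested, of which 1 rose and 0 fell. COL4A1 was at 108.8, 111.3 and 84.0 CPM in NC and 191.9, 182.8 and 193.5 CPM in si-EIF5A2. The si-EIF5A2 libraries lay close together and above all NC libraries, with a log2FC of 0.90 (SE 0.11, adjusted p = 0.000536). COL4A2 encodes the chain that joins COL4A1 products in the most common type IV molecule. It was at 440.9, 448.1 and 410.9 CPM in NC and at 326.7, 343.6 and 337.8 CPM in si-EIF5A2. Here all 3 si-EIF5A2 libraries lay below the NC libraries. The log2FC was -0.37 (SE 0.07, adjusted p = 0.00378), a difference that passed on p but not on the fold limit and so was not called.

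The genes COL4A1 and COL4A2 are neighbours on opposite strands of chromosome 13, COL4A1 from 110148963 to 110307233 (minus) and COL4A2 from 110305812 to 110513209 (plus). Their ranges overlap in GENCODE at the starts of both genes, but no exon bases are shared. Outside the overlap, transcription of each runs away from the other. Within each library, the ratio of COL4A1 to COL4A2 counts, not divided by length, was 0.247, 0.248 and 0.204 in NC and 0.587, 0.532 and 0.573 in si-EIF5A2. The ratio was higher in every si-EIF5A2 library than in any NC library, with means of 0.233 ± 0.0250 and 0.564 ± 0.0286 (SD, n = 3 each). The difference of 1.28 on the log2 scale had a 2-sided exact permutation p of 0.10, the smallest that 3 against 3 libraries allow, and 0.40 after Benjamini-Hochberg adjustment over 4 pairs of chains. A design of this size cannot reach 0.05.

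The pairs of chains were chosen after their values had been seen. For the other 3 pairs the groups overlapped. The COL5A1 to COL5A2 ratio averaged 0.461 ± 0.0908 in NC and 0.422 ± 0.0332 in si-EIF5A2 (exact permutation p = 0.60). COL6A1 to COL6A2 averaged 1.51 ± 0.0437 and 1.603 ± 0.153 (exact permutation p = 0.40), and COL4A5 to COL4A6 averaged 14.5 ± 2.51 and 12.7 ± 1.23 (exact permutation p = 0.40), each with n = 3 libraries a group. The last pair also lies head to head, on chromosome X, with 346 bases between the genes.

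**Figure D2:**
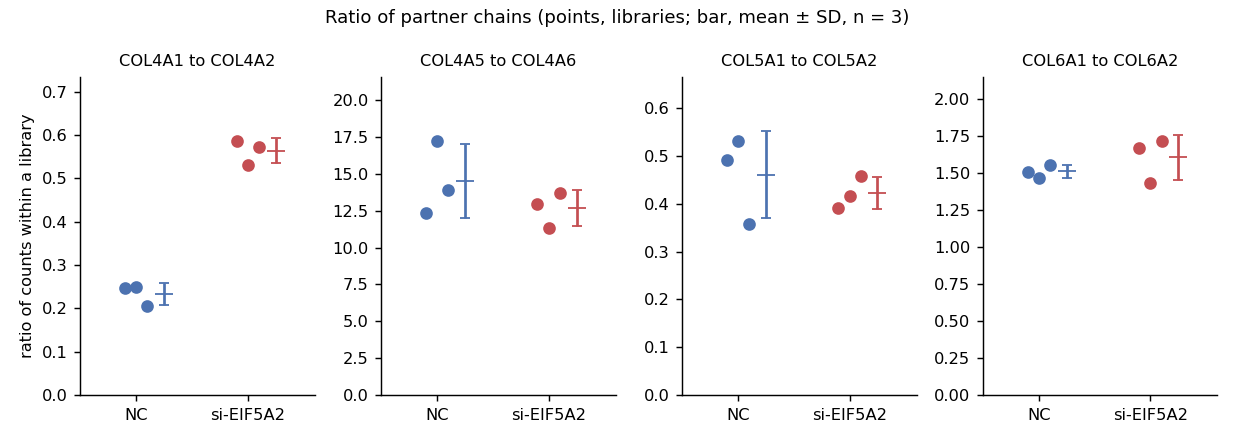
Ratio of the counts of partner chains within each library, for 4 pairs of collagen genes. Points are libraries (NC blue, si-EIF5A2 red), bars are mean ± SD (n = 3), and each vertical axis starts at 0; the groups are apart for COL4A1 to COL4A2, at 0.204 to 0.248 and 0.532 to 0.587, and overlap for the other pairs.

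COL4A5, a type IV chain of kidney and skin basement membranes, was at 11.7, 14.1 and 14.8 CPM in NC and at 15.2, 14.1 and 16.0 CPM in si-EIF5A2. The groups overlapped (log2FC 0.16, SE 0.13, adjusted p = 0.395). Its partner COL4A6 had a log2FC of 0.34 (SE 0.30, adjusted p = 0.425) at about 1 CPM. COL18A1, which encodes a basement membrane collagen whose end fragment is endostatin, was at 19.2, 15.2 and 13.8 CPM in NC and 26.2, 27.5 and 26.2 CPM in si-EIF5A2. All si-EIF5A2 libraries were higher, and the gene rose with a log2FC of 0.73 (SE 0.14, adjusted p = 0.00398). COL18A1 shares 1401 exon bases with SLC19A1, a folate transporter gene on the opposite strand, and whether counting used strand is not given in the sources used here. SLC19A1 was at 38.4, 27.9 and 30.7 CPM in NC and 36.1, 38.6 and 43.2 CPM in si-EIF5A2, and its part in the COL18A1 value was not tested.

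Type VI collagen had 3 of 5 chains tested, of which 1 rose and 0 fell. COL6A1 and COL6A2 encode chains that assemble with the COL6A3 product. COL6A1 was at 604.8, 543.4 and 488.5 CPM in NC and 744.8, 773.1 and 817.1 CPM in si-EIF5A2. COL6A2 was at 401.5, 370.6 and 314.4 CPM in NC and 447.1, 541.1 and 476.3 CPM in si-EIF5A2. In both genes every si-EIF5A2 library was above every NC library. The log2FCs of 0.51 (SE 0.09, adjusted p = 0.00317) and 0.43 (SE 0.11, adjusted p = 0.0176) were under the fold limit, so neither was called, although COL6A1 was called without NC replicate 1 (0.59, adjusted p = 0.0026). For COL6A2 the adjusted p went over 0.05 without NC replicate 3 (0.33, adjusted p = 0.0504) and without si-EIF5A2 replicate 2 (0.35, adjusted p = 0.057). COL6A3, the long chain, was at 0.658, 0.791 and 0.638 CPM in NC and 1.76, 1.88 and 1.38 CPM in si-EIF5A2. It rose with a log2FC of 1.26 (SE 0.30, adjusted p = 0.0131), and per kb it stood at 0.0851 CPM in si-EIF5A2, where COL6A1 was at 146 CPM.

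Transmembrane collagens are anchored in the cell surface, and of the 4 genes 2 were tested, 0 rose and 2 fell. COL13A1, which sits in the membrane at sites of cell adhesion, was at 12.4, 13.6 and 14.0 CPM in NC and 4.499, 4.14 and 4.96 CPM in si-EIF5A2. The groups were well apart, with the si-EIF5A2 mean at 34.0% of the NC mean. Its log2FC was -1.56 (SE 0.14, adjusted p = 9.6e-05). COL17A1, the collagen of hemidesmosomes that anchor epithelial cells to the basement membrane, was at 24.5, 21.7 and 20.4 CPM in NC and 9.88, 10.4 and 8.53 CPM in si-EIF5A2. Again no libraries overlapped, and the log2FC was -1.21 (SE 0.13, adjusted p = 0.000253). Both genes lie on chromosome 10, COL13A1 from 69801867 to 69964275 and COL17A1 from 104031286 to 104085957. COL7A1, which forms the anchoring fibrils below hemidesmosomes, had a log2FC of -0.16 (SE 0.37, adjusted p = 0.771) and overlapped between groups.

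Among the collagens that sit on the surface of fibrils (FACIT), 3 of 10 were tested and 0 were called. COL12A1, a collagen of tendon and other dense tissue, was at 13.9, 14.7 and 15.0 CPM in NC and at 20.9, 19.7 and 22.7 CPM in si-EIF5A2. The groups did not overlap, and the log2FC of 0.54 (SE 0.11, adjusted p = 0.00508) was under the fold limit. Of the short-chain network collagens, 2 of 3 were tested and 0 called, with COL8A1 at a log2FC of 0.73 (adjusted p = 0.519). Across the 9 tested genes that were neither called nor at 10 CPM, the log2FCs ran from -0.89 to 1.09, the lowest adjusted p was 0.361 and the group means were 0.188 to 3.83 CPM.

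**Figure D3:**
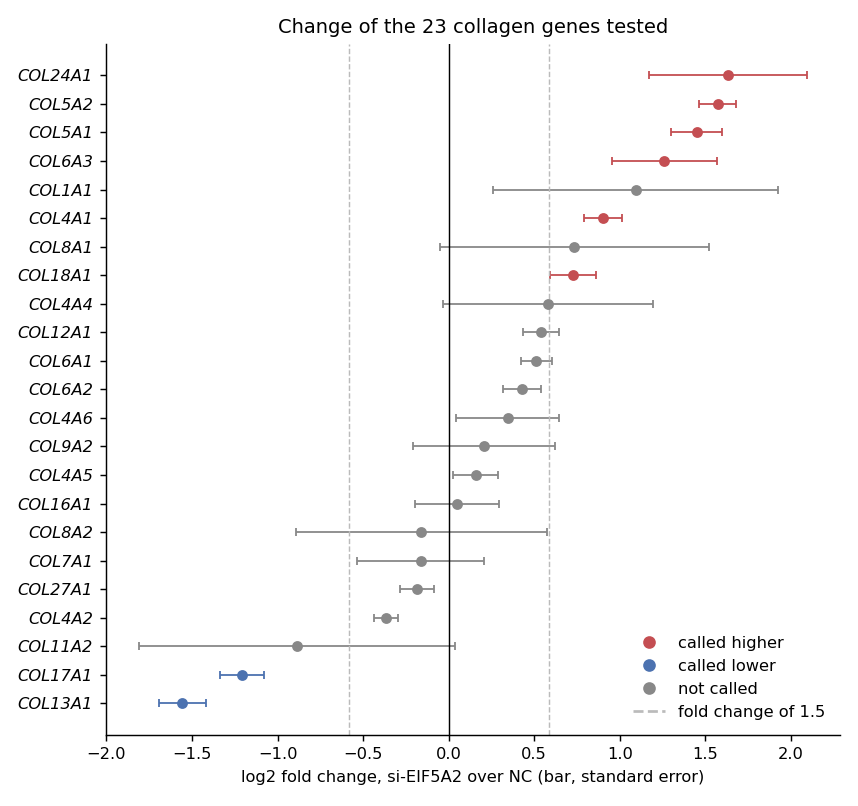
Log2FC of si-EIF5A2 over NC for the 23 collagen genes tested, ordered by value, with the SE as bars (n = 3 libraries a group) and dashed lines at a fold change of 1.5. Red points were called higher (6), blue points lower (2) and grey points not called (15); the SEs are wide for rare genes such as COL1A1.

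EIF5A2 belongs to the eIF5A family, known for helping ribosomes pass stretches of proline, and the chains of collagens are rich in proline. RNA levels do not measure translation. In the longest annotated protein of each gene, the number of proline-proline-glycine triplets ran from 2 in COL6A5 to 68 in COL4A5, and 16 of 44 proteins held a run of at least 3 prolines. The genes that rose covered much of this range, from COL6A3 with 6 triplets to COL5A1 with 54, and those that fell had 23 (COL13A1) and 48 (COL17A1). Across the 23 tested genes, Spearman's rho between triplets and log2FC was -0.10, and -0.22 per 1000 residues. These genes share the same libraries and are not independent, so the values are a description.

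The genes that modify, export, process, bind, degrade and regulate collagens moved in both directions. Of 83 on the lists, 70 were tested and 30 called (42.9%, beside 24.6% of all genes tested). Of these 30 genes, 16 rose and 14 fell, and the median log2FC of the tested genes was 0.07. The lists were chosen with earlier results of these data known, so these shares are a description and not a test. In hydroxylation and folding, 8 of 18 tested genes rose and 2 fell (55.6% called). FKBP14, a prolyl isomerase that folds collagen in the endoplasmic reticulum, went from 9.59, 11.4 and 8.997 CPM in NC to 43.0, 35.9 and 42.3 CPM in si-EIF5A2 (log2FC 2.01, adjusted p = 2.2e-05). P4HA2, a subunit of the prolyl hydroxylase that stabilises the helix, went from 11.1, 11.7 and 10.7 CPM to 39.8, 36.6 and 39.7 CPM (log2FC 1.79, adjusted p = 1e-05). The galactosyltransferases of hydroxylysine fell, COLGALT2 by 1.18 and COLGALT1 by 0.83 on the log2 scale (adjusted p = 0.00135 and 8.5e-05).

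In procollagen export, 0 of 7 tested genes rose and 1 fell (14.3% called, beside 24.6% of all genes tested). SEC23A, a coat protein of the vesicles that carry procollagen, went from 103.6, 110.8 and 130.3 CPM in NC to 51.9, 43.3 and 41.0 CPM in si-EIF5A2 (log2FC -1.34, adjusted p = 0.000124). In propeptide processing and cross-linking, 0 of 11 tested genes rose and 3 fell (27.3% called, near the 24.6% of all genes tested). The cross-linking oxidase LOXL1 went from 97.2, 79.8 and 63.8 CPM to 16.0, 14.1 and 13.9 CPM (log2FC -2.45, adjusted p = 2.6e-05). ADAMTS3, a procollagen N-proteinase, had a log2FC of -1.52 (adjusted p = 0.021), lost without NC replicate 2 (-1.33, adjusted p = 0.0901).

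Of the fibril and network partners, 7 of 13 were tested, 1 rose and 1 fell (28.6% called, near the 24.6% of all genes tested). SPARC, a matrix protein that binds collagen, went from 618.4, 628.7 and 626.4 CPM in NC to 1456, 1448 and 1438 CPM in si-EIF5A2, with a log2FC of 1.21 (adjusted p = 8e-06). TNXB, a tenascin that spaces fibrils, was called lower. It had 37, 58 and 12 counts in NC and 0 in every si-EIF5A2 library, and is named here after its values were seen. Of the receptors, 7 of 10 were tested, 1 rose and 1 fell (28.6% called, near the 24.6% of all genes tested). ITGB1, the shared beta subunit of the collagen-binding integrins, rose (log2FC 0.74, adjusted p = 0.00384). ITGA1, the alpha subunit of 1 of them, fell by 0.64 (adjusted p = 0.0186), and this call was lost without NC replicate 3 (-0.56, adjusted p = 0.0607) and without si-EIF5A2 replicate 1 (-0.58, adjusted p = 0.0556).

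In collagen degradation, 9 of 11 genes were tested, 4 rose and 3 fell (77.8% called, beside 24.6% of all genes tested). MMP1, interstitial collagenase, was at 0.178, 0.565 and 0.830 CPM in NC and 3.33, 2.91 and 2.001 CPM in si-EIF5A2 (log2FC 2.41, adjusted p = 0.00888). FAP, a surface protease that cuts denatured collagen, had a log2FC of 1.25 (adjusted p = 0.0264), and the call was lost without NC replicate 3 (1.003, adjusted p = 0.0649) and without si-EIF5A2 replicate 2 (0.96, adjusted p = 0.0962). The gelatinase MMP2 fell by 1.25 and the inhibitor TIMP3 by 1.28 on the log2 scale (adjusted p = 0.00848 and 0.000417). Among the regulators, all 11 were tested, 2 rose and 3 fell (45.5% called, beside 24.6% of all genes tested). TGFBR1, a receptor kinase for TGF-beta, rose (log2FC 1.28, adjusted p = 0.00018), while CREB3L1, a transcription factor that drives collagen genes, fell by 1.62 (adjusted p = 0.0058) and CCN2, a matricellular protein, by 0.92 (adjusted p = 4.1e-05). SMAD7, an inhibitor of TGF-beta signalling, had a log2FC of 0.67 (adjusted p = 0.0225), with its call lost without NC replicate 1 (adjusted p = 0.0689), NC replicate 2 (0.0779), si-EIF5A2 replicate 1 (0.0676) or si-EIF5A2 replicate 2 (0.0733).

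**Figure D4:**
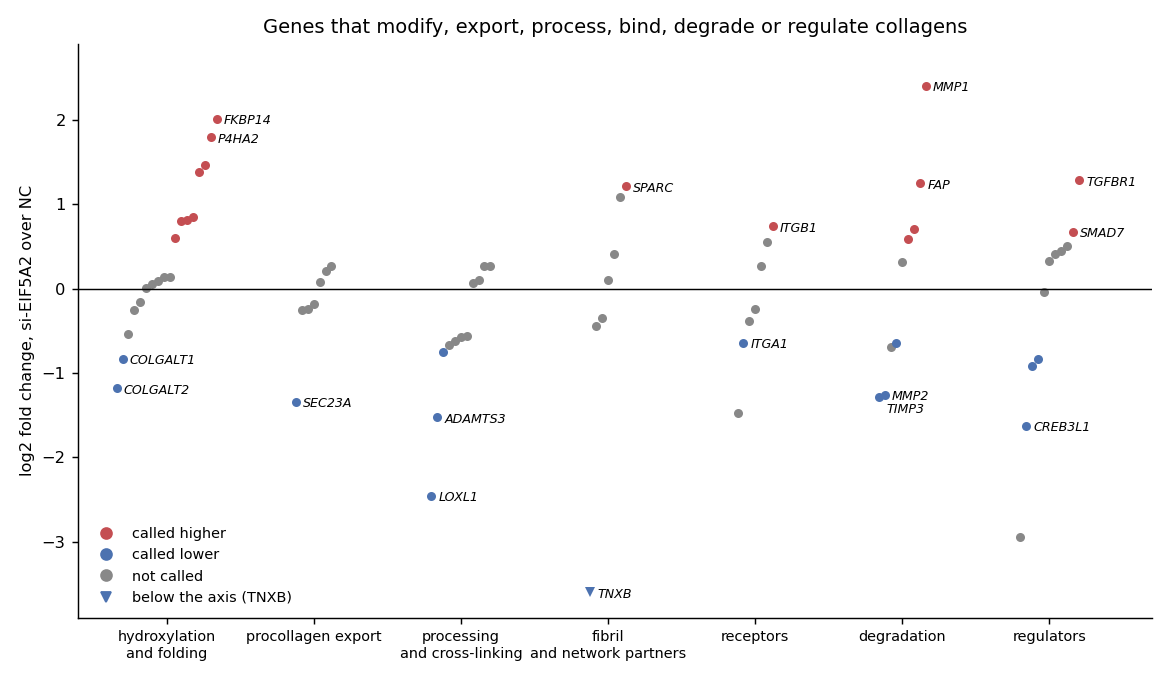
Log2FC of si-EIF5A2 over NC for the 70 tested genes of 7 lists of collagen-related functions, 1 point a gene, spread sideways within a list by value. Red points were called higher (16), blue lower (14) and grey not called (40), the names are those of called genes at the ends of a list, and TNXB, with 0 counts in si-EIF5A2, lies below the axis and is drawn as a triangle.

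Marker genes were read beside these values. The 9 epithelial and carcinoma markers summed to 1506 to 1673 CPM in NC and 955.6 to 1168 CPM in si-EIF5A2. KRT7, KRT8 and PAX8 were called lower, and MUC16 was at 0 in every library. KRT18, KRT19, EPCAM, ERBB2 and CDH1 were tested and not called, with log2FCs from -0.78 (CDH1) to -0.02 (ERBB2). The 8 fibroblast markers summed to 24.5 to 26.8 CPM in NC and 64.9 to 71.8 CPM in si-EIF5A2. Nearly all of this was ACTA2, at 25.1, 24.5 and 22.6 CPM in NC and 62.7, 68.3 and 62.3 CPM in si-EIF5A2, while THY1, DCN, LUM and POSTN stayed at or under 3 fragments in every library. FAP was called higher, as given above, and PDGFRB was called lower. The 5 endothelial markers summed to 28.2 to 32.4 CPM and 0.958 to 1.88 CPM, with CDH5 called lower from 28.9, 30.0 and 25.9 CPM to 0.958, 0.977 and 0.563 CPM, and the 6 leukocyte markers to 40.8 to 57.4 CPM and 28.97 to 55.5 CPM, nearly all CD68, with PTPRC at 0. The part of ACTA2 and the other markers in the collagen values was not tested.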

How the data were processed

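From paired-end mRNA sequencing, the authors estimated expression with StringTie and ballgown and deposited expected counts for each gene as whole numbers, neither normalized nor pooled. The submitters' processing notes name Bowtie 0.12.2 and the mouse builds mm8 and mm9, which go against the human identifiers of the table; the human build, annotation and strand setting are not given in the sources used here. Symbols, positions, lengths and coding sequences came from GENCODE 29 (GRCh38), in which 58552 of 58825 identifiers were found. The deposited table was fitted in edgeR 4.0.16 (R 4.3.3) with TMM scaling, filterByExpr, robust quasi-likelihood tests and Benjamini-Hochberg adjustment over all 16208 genes, with the condition as the only term. Standard errors are the log2 fold change over the root of F. The steps were tested on simulated data. Members and gene lists were chosen with earlier results of these data known. Collagens are described with every library where called or at a mean of 10 CPM or more, and others by range with at most 1 example a class. Named in each list are the called genes that rose most (2) and fell most (2), if 1 group mean reached 1 CPM. Alternatives were other scalings, DESeq2 1.42.0, other filters, count steps, thresholds, the replicate block and leaving out each library; leaving out a library for the ratios was chosen after seeing the data.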

Additional observations from a re-analysis of the deposited data

How the results depend on the processing

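The count of 8 called collagens (6 higher, 2 lower) was the same under RLE, upper-quartile and library-size scaling, DESeq2, both other filters and counts divided by their step. It was 12 with no limit on the fold change, 6 at the threshold of the study's methods (unadjusted p under 0.05, fold change over 2), and 7 to 9 when each library was left out. The pathway genes called numbered 17 in place of 30 at the threshold of the methods, whose unadjusted p can only add calls and whose fold limit can only remove them, and 27 to 30 when a library was left out. Same-numbered libraries did not deviate together (r -0.0244, 0.00522 and -0.00269), so the replicate numbers were not taken as pairs. The replicate block gave 7 collagens and 28 pathway genes, with COL24A1 lost (1.73, adjusted p = 0.0571). EIF5A2 stayed between -3.10 and -2.82 when a library was left out. Over the single collagens, 304 values under alternatives kept their direction and side of the threshold, 3 lost the call (COL24A1), 1 gained it (COL6A1, while COL6A2, not called, went over 0.05 on adjusted p without NC replicate 3 or si-EIF5A2 replicate 2) and 6 changed sign, all in rare genes that were not called and all on leaving out a library: COL16A1 (-0.14 to 0.18), COL7A1 (-0.46 to 0.17), COL8A2 (-1.23 to 0.17) and COL9A2 (-0.20 to 0.49). The log2 difference of the COL4A1 to COL4A2 ratio was 1.19 to 1.33 when each library was left out, and that of COL5A1 to COL5A2, which overlapped between groups, was -0.28 to 0.00. With the longest transcript as the length, 32 of 46 levels per kb moved by more than 1 SD. The first 4 places kept their order in both groups, but lower places changed: in NC, COL13A1 (4.19 CPM per kb) then stood above COL17A1 (3.91), and COL27A1 (3.05) above COL18A1 and COL5A2. In si-EIF5A2, COL27A1 (2.68) and COL4A5 (2.33) then stood above COL5A1 (2.25) and COL12A1 (1.80). At this depth a count of 0 allows a level of up to 0.153 to 0.237 CPM, by library, so levels this low are uncertain.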

Other observations

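The libraries of the si-EIF5A2 group were not alike for a few rare transcripts known from connective tissue cells, while other transcripts of such cells did not follow. In si-EIF5A2 replicate 3, COL3A1 had 34 counts, COL11A1 19 counts, and DCN and LUM 0.229 CPM each, while COL3A1, DCN and LUM were at 0 in the other 5 libraries and COL11A1 had 7 counts in si-EIF5A2 replicate 2 only. None of these 4 genes passed the filter on low counts. DCN and LUM, at 11 counts each, lay under the 3-fragment level of that library (0.233 CPM). COL1A1, which passed but was not called, was also highest in si-EIF5A2 replicate 3, at 1.98 CPM. It was at 0.782 and 1.13 CPM in the other si-EIF5A2 libraries, and its log2FC of 1.09 was 0.65 without replicate 3. Among the other fibroblast markers, PDGFRA (11 counts) and PDGFRB (4 counts) were also highest in replicate 3 within the si-EIF5A2 group. In contrast, ACTA2 (62.3 CPM) and FAP (2.085 CPM) were lowest in replicate 3 within that group. COL1A2, THY1 and POSTN were at 0 in replicate 3. The part of such transcripts in the values of other genes was not tested. The calls of COL5A2, COL5A1, COL6A3, COL4A1, COL18A1, COL13A1 and COL17A1 held without si-EIF5A2 replicate 3. That of COL24A1 held narrowly (log2FC 1.72, adjusted p = 0.0475).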
